A study of Mus musculus with 19 samples.

Results

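Border and perivascular macrophages are marked by 9 genes, *Mrc1*, *Cd163*, *Lyve1*, *Pf4*, *Cbr2*, *Folr2*, *Stab1*, *Siglec1* and *Cd38*, which were measured in sorted retinal microglia with and without laser-induced choroidal neovascularization (CNV). They were chosen by name, and all 9 were found among the 27299 genes with a value. CNV d3 samples (n = 6) came from eyes taken on day 3 after argon laser treatment with 6 burns per eye, and control samples (n = 6) came from unlasered mice. The mice of both groups were 8 weeks old by the labels and the methods, while the scheme of the experiment gives 6 weeks. By the labels the strain was C57BL/6J and the sorted cells were CD45+, whereas the methods name *Cx3cr1* GFP/+ mice, in which 1 allele of the fractalkine receptor gene carries a fluorescent reporter, and CD45lo cells. In both groups the cells were also CD11b+ CX3CR1+ Ly6C- Ly6G-, and the central retina was used after the periphery had been removed. No source states that the samples of a group were separate mice, so the p-values measure only the spread between samples, which may be technical in part.

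Border macrophages are long-lived macrophages of the tissues around the nervous system, such as the meninges, the choroid plexus and the perivascular space, and in the eye also of the ciliary body and the choroid. They share *Cx3cr1* and the CSF1 receptor with microglia, so that a sort for CX3CR1 and CD11b alone can hold both. A gate on low CD45, as the methods name it here, is commonly used to leave out border macrophages, which tend to carry more CD45. They differ from microglia by scavenger and endocytic receptors, which take up glycoproteins, hyaluronan, haptoglobin-bound haemoglobin and lipoproteins from fluid near the vessels. Most of these genes are not exclusive to 1 cell type. *Stab1* is also expressed in sinusoidal endothelium and in some microglia, *Lyve1* in lymphatic endothelium, *Pf4* in megakaryocytes and platelets, and *Siglec1* and *Cd38* in other myeloid or lymphoid cells.

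All values are normalized counts, that is, reads per gene scaled by a size factor of each sample. The depth was 10963178 to 22335233 reads on genes in the control samples and 23532260 to 29523018 in the CNV d3 samples, so the CNV d3 libraries were deeper, and 1 read was worth 1.00 to 1.99 normalized counts in control and 0.739 to 0.895 in CNV d3. All 6 control samples, but only CNV d3 replicate 4, were listed in 2 sequencing parts, although the methods state that files of 2 flow cells were merged for each sample. Any effect of that listing cannot be told apart from the laser treatment. Homeostatic microglia genes far exceeded the 9 marker genes in every sample, but such sums do not measure the share of other cells. The summed level of 10 homeostatic microglia genes was 1105000 to 1264000 in control and 554000 to 831800 in CNV d3, whereas the 9 marker genes together summed to 2221 to 4124 in control and 4173 to 6684 in CNV d3. In bulk samples, fewer cells of a type and less RNA per cell cannot be told apart.

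The starts of *Cbr2* and *Folr2*, which rose in CNV d3, of *Mrc1*, whose change differed from theirs, and of *Pf4*, which held the only motif found, are shown to give the sequence next to the genes that the results turn on. Promoter sequences from RefSeq (GRCm38.p6) were matched for 7 of the 9 genes, with 2 start sites for *Folr2*. Each line gives the 250 bases before the start, 5′ to 3′ on the strand of the gene. The *Cbr2* stretch is chr11:120732022-120732271 on the minus strand, the upstream and downstream *Folr2* stretches are chr7:101857191-101857440 and chr7:101845332-101845581 on the minus strand, the *Mrc1* stretch is chr2:14229164-14229413 on the plus strand, and the *Pf4* stretch is chr5:90772185-90772434 on the plus strand. The capitals in *Pf4* mark a match to the PU.1 motif GAGGAAGT, read on the opposite strand, 10 to 3 bases before the start.
*Cbr2*: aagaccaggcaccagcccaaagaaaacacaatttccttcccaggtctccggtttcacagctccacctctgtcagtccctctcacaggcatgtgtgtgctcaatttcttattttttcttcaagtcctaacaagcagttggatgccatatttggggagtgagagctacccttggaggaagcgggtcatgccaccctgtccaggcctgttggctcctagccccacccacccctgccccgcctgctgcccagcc
*Folr2*, upstream start: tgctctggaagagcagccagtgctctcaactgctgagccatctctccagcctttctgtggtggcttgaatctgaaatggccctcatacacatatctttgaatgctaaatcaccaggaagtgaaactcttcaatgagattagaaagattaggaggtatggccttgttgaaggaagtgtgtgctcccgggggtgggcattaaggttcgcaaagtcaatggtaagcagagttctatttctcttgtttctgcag
*Folr2*, downstream start: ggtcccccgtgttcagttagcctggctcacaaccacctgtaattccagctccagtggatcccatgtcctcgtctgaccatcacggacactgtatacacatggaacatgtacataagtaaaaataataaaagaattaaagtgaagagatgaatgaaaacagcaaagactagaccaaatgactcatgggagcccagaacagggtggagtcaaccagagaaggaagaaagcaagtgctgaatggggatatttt
*Mrc1*: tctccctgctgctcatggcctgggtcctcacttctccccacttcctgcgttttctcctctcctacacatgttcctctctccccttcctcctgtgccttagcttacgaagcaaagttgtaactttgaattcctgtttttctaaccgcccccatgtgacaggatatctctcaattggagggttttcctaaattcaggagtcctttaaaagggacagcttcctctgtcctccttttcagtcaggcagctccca
*Pf4*: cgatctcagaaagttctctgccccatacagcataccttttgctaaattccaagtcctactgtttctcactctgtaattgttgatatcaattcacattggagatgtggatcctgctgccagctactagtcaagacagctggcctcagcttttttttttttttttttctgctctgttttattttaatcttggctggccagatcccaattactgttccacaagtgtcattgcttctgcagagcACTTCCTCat

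Each window was searched on both strands for 3 motifs, and matches were counted for each motif on its own. The PU.1 motif, named for the myeloid transcription factor, was in 2.44% of 32851 promoter windows of this length and, of the 7 genes with a window, in *Pf4*. The interferon-stimulated response element GAAANNGAAA was in 2.98% of the windows and the TATA box TATAAA in 12.4%, and neither was in the window of any of the 7 genes. A match is a description of the letters and not a bound site. *Lyve1* and *Siglec1* were not matched.

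By limma *Siglec1* rose, together with the low-count genes *Cbr2* and *Folr2*, and no marker gene was called decreased. When 1 sample was left out, *Siglec1* was called in 12 of 12 fits, *Folr2* in 4 and *Cbr2* in 2, and DESeq2 called *Mrc1* decreased. A gene was called differentially expressed (DEG) when limma gave it an adjusted p under 0.05 and a log2 fold change beyond 1.5 in either direction on the log2(normalized counts + 1) scale, with Benjamini-Hochberg adjustment over all genes. By this rule 3 of the 9 genes were increased and 0 were decreased, against 3.91% and 1.07% of all genes. With the adjusted p alone, 4 of the 9 were higher, with *Stab1* as the fourth, and 0 were lower, against 8.29% and 4.57% of all genes. A two-sided exact permutation test of a single gene gave a p under 0.05 for 4 of the 9 genes, against 22.5% of all genes. For none of the 9 genes did the samples of the groups separate without overlap, which was so for 4.64% of all genes with CNV d3 above and 2.83% with CNV d3 below. The median log2 fold change of the 9 genes was 0.94, with 7 above 0 and 2 below, whereas over all genes it was 0.15 and 59.3% were above 0. At 10 normalized counts in at least 6 samples, 7 of the 9 genes passed, and *Cd163* and *Lyve1* did not.

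**Figure D1:**
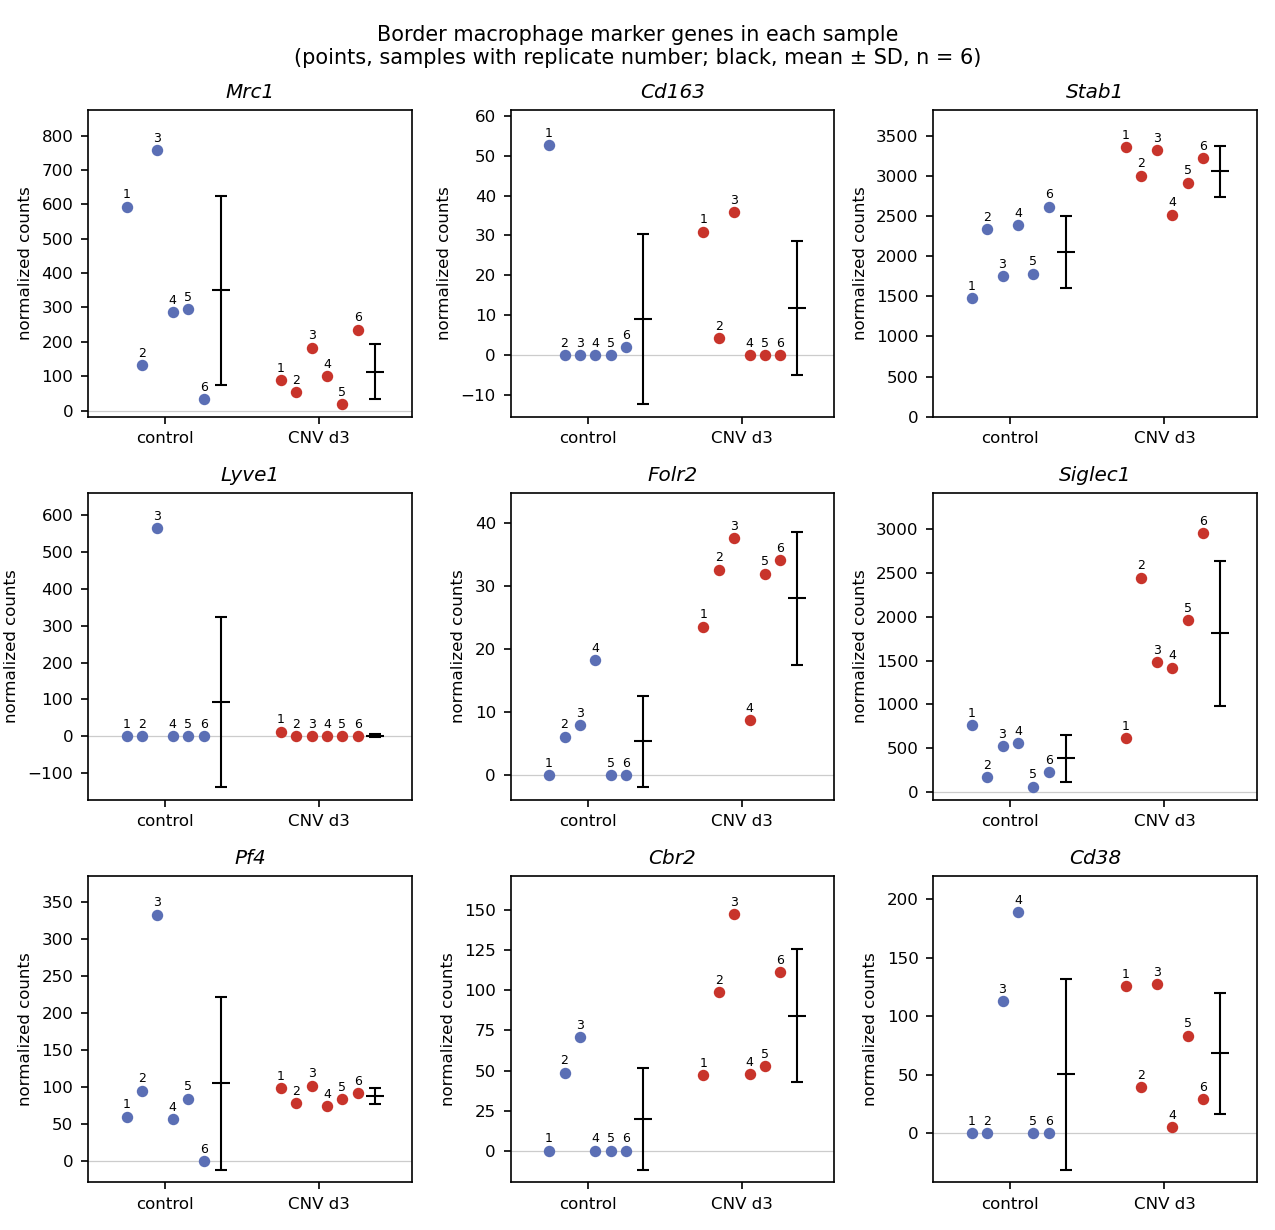
Normalized counts (vertical axis) of the 9 marker genes in the 6 control samples (blue) and the 6 CNV d3 samples (red), with the replicate number at each point and the mean ± SD in black. Siglec1, Stab1 and Folr2 have 5 of 6 CNV d3 samples above every control, Mrc1 is spread from 33.8 to 757.8 in control, and Lyve1 is above 0 in 1 sample of each group.

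Among the scavenger and endocytic receptors, *Stab1* was the most abundant and the steadiest. *Stab1* (stabilin-1, chr14:31139013-31168641) encodes a receptor that clears modified lipoproteins and matrix fragments. The lowest, median and highest normalized counts of *Stab1* were 1474, 2058 and 2617 in control and 2519, 3116 and 3363 in CNV d3. CNV d3 replicate 4 was the 1 sample within the control range, and the other 5 lay above every control. The mean was 2058 ± 448 in control and 3059 ± 318 in CNV d3 (SD, n = 6 each), a ratio of 1.49. *Stab1* had a log2 fold change of 0.59 (SE 0.14, 95% interval 0.30 to 0.89, limma adjusted p = 0.0107), under the threshold of 1.5, and the exact permutation p was 0.00433. Its adjusted p stayed between 0.000825 and 0.0434 over all alternatives and samples left out.

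*Mrc1* (CD206, chr2:14229392-14332057), the mannose receptor that takes up mannosylated glycoproteins and is the most used surface marker of border macrophages, was lower on average but not a DEG. In control, *Mrc1* had lowest, median and highest normalized counts of 33.8, 290.7 and 757.8, and in CNV d3 of 19.2, 94.2 and 235.1. Control replicates 1, 3, 4 and 5 lay above every CNV d3 sample, while control replicates 2 and 6 lay within the CNV d3 range. The mean was 350 ± 276 in control and 113 ± 81.1 in CNV d3 (SD, n = 6 each), 3.08 times higher in control. By limma *Mrc1* had a log2 fold change of -1.44 (SE 0.72, 95% interval -2.98 to 0.10, limma adjusted p = 0.233), and the two-sided exact permutation p was 0.121. DESeq2 on the recovered reads gave a log2 fold change of -1.63 with an adjusted p of 0.0411 and called *Mrc1* a decreased DEG, while edgeR gave -1.62 with an adjusted p of 0.0935 and no call.

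*Folr2* (folate receptor beta, chr7:101839988-101857194) binds folate and marks resident macrophages in many tissues. *Folr2* had lowest, median and highest normalized counts of 0.0, 3.04 and 18.3 in control and 8.7, 32.3 and 37.6 in CNV d3. The gene was at 0 in 3 of 6 controls and above 0 in all 6 CNV d3 samples, of which all but replicate 4 lay above every control. Mean *Folr2* was 5.37 ± 7.21 in control and 28.1 ± 10.6 in CNV d3 (SD, n = 6 each). These are 31 reads in all control samples and 204 in all CNV d3 samples. The log2 fold change of *Folr2* was 3.03 (SE 0.91, 95% interval 1.08 to 4.98, limma adjusted p = 0.0407), with an exact permutation p of 0.00433. The call was lost with a pseudocount of 10 (log2 fold change 1.36), in edgeR (adjusted p = 0.175) and after all samples were thinned to the total reads of the shallowest one (adjusted p = 0.0802). It was also lost when any sample other than control replicates 2, 3 or 4 or CNV d3 replicate 4 was left out (adjusted p up to 0.0793). Of the exon bases of *Folr2*, 63.1% are shared with *Gm10602* on the other strand, and counting without strand drops reads in shared exons, so the level of *Folr2* is uncertain. *Gm10602* had a mean of 51.2 normalized counts in control and 22.3 in CNV d3, and a log2 fold change of -0.26 (limma adjusted p = 0.875).

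*Cd163* and *Lyve1* were at or near 0 in most samples. *Cd163* (chr6:124304656-124330527), the scavenger receptor for haemoglobin bound to haptoglobin, was above 0 in 2 of 6 controls and 3 of 6 CNV d3 samples. Its lowest, median and highest normalized counts were 0.0, 0.0 and 52.6 in control and 0.0, 2.09 and 35.8 in CNV d3. The high samples were control replicate 1 and CNV d3 replicates 1 and 3, and the groups overlapped. Its log2 fold change of 0.88 had a 95% interval from -1.74 to 3.49 (limma adjusted p = 0.633).

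*Lyve1* (chr7:110850607-110863239), the hyaluronan receptor of perivascular macrophages and lymphatic vessels, had reads in 1 sample of each group. Its lowest, median and highest normalized counts were 0.0, 0.0 and 564.1 in control and 0.0, 0.0 and 12.6 in CNV d3. The high value was in control replicate 3 alone, which held all 501 reads of *Lyve1* in control, and the low one in CNV d3 replicate 1. The log2 fold change of *Lyve1* was -0.90 (95% interval -3.88 to 2.08, limma adjusted p = 0.671) and turned to 0.63 without control replicate 3. On the recovered reads it was -5.33 in edgeR (adjusted p = 0.106) and -5.48 in DESeq2, which gave no adjusted p. Of the endothelial list, *Flt4* and *Prox1* also mark lymphatic vessels. *Flt4* was at 0 in all 6 controls, whereas *Prox1* had a mean of 405 normalized counts in control, the highest of the list. The other control means were uneven, with 392 for *Pecam1* and 315 for *Kdr*, but 29.1 for *Cdh5*, 3.91 for *Vwf* and 0.169 for *Tek*. The summed list therefore rested mostly on *Prox1*, *Pecam1* and *Kdr*. Among the controls it was lowest in replicate 3, at 685. The part of lymphatic or endothelial cells in the *Lyve1* value was not tested.

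*Siglec1* (CD169, sialoadhesin, chr2:131069220-131086765) is a lectin that binds sialic acid on cells and vesicles, and its transcription is known to respond to type I interferon. Its lowest, median and highest normalized counts were 58.2, 374.4 and 765.4 in control and 610.2, 1721 and 2956 in CNV d3. CNV d3 replicate 1 was the 1 sample that lay within the control range, and only control replicate 1 lay above it. The mean of *Siglec1* was 383 ± 273 in control and 1812 ± 830 in CNV d3 (SD, n = 6 each), a ratio of 4.74. The log2 fold change was 2.52 (SE 0.55, 95% interval 1.35 to 3.69, limma adjusted p = 0.00659), and the two-sided exact permutation p was 0.00433. *Siglec1* was the 1 gene of the 9 that was called an increased DEG in all 10 alternatives (log2 fold change 2.24 to 2.55) and in all 12 fits that left out 1 sample (2.07 to 2.81, adjusted p up to 0.0439).

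The summed level of 12 type I interferon response genes moved with *Siglec1* between the groups. It was lowest at 9191 and highest at 31110 in control, and 20600 to 47630 in CNV d3. The 2 controls above 20600 were replicates 1 and 3, at 25530 and 31110, and the lowest CNV d3 sample was replicate 1, which was also the lowest for *Siglec1*. Control replicate 4 had a *Siglec1* level of 555.1 at an interferon sum of 9797. Of the 12 interferon response genes, 4 were increased DEG (*Irf7*, *Mx1*, *Cmpk2* and *Ifi44*) and 0 were decreased, against 3.91% and 1.07% of all genes. *Ifit1*, *Ifit2*, *Ifit3*, *Oasl2*, *Rsad2* and *Xaf1* were also higher with a limma adjusted p under 0.05. Their log2 fold changes of 1.06 to 1.44 were under the threshold of 1.5. *Isg15* and *Usp18* were higher but did not pass (limma adjusted p = 0.0671 and 0.0545). *Ifit2* had the highest mean in both groups. The part of interferon response in the change of *Siglec1* was not tested.

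The 2 enzymes were at 0 in 4 of 6 controls each and above 0 in all 6 CNV d3 samples. *Cbr2* (chr11:120729489-120732114), a carbonyl reductase that is expressed in macrophages of the meninges and choroid plexus, had lowest, median and highest normalized counts of 0.0, 0.0 and 70.9 in control and 47.3, 75.8 and 147.6 in CNV d3. Control replicates 2 and 3 reached 48.6 and 70.9 and overlapped with CNV d3 replicates 1, 4 and 5, while the other 3 CNV d3 samples lay above every control. Mean *Cbr2* was 19.9 ± 31.7 in control and 84.2 ± 41.6 in CNV d3 (SD, n = 6 each), a ratio of 4.23. For *Cbr2* the log2 fold change was 4.30 (SE 1.18, 95% interval 1.78 to 6.82, limma adjusted p = 0.0251), with an exact permutation p of 0.0195. In edgeR and DESeq2 the log2 fold change was 2.07 and 2.08 with adjusted p of 0.249 and 0.239, and after thinning to equal total reads the limma adjusted p was 0.0519. When 1 sample was left out, the call held only without control replicate 2 or 3, and the adjusted p reached 0.0834 otherwise.

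*Cd38* (chr5:43868553-43912375), an enzyme that hydrolyses NAD and forms cyclic ADP-ribose, had the widest interval of the 9 genes. Its lowest, median and highest normalized counts were 0.0, 0.0 and 188.8 in control and 5.2, 61.3 and 127.1 in CNV d3. The highest sample of all was control replicate 4, and control replicate 3 followed at 112.6, while the remaining 4 controls were at 0. The mean of *Cd38* was 50.2 ± 81.5 in control and 68.3 ± 51.6 in CNV d3 (SD, n = 6 each). The log2 fold change of 3.14 (95% interval -0.01 to 6.30, limma adjusted p = 0.200) was 1.28 with a pseudocount of 10 and 0.45 in edgeR. The exact permutation p was 0.0909.

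*Pf4* (CXCL4, chr5:90772435-90773383) encodes a chemokine that is stored in platelets and is also made by border macrophages. Its lowest, median and highest normalized counts were 0.0, 72.2 and 333.3 in control and 74.4, 87.8 and 102.0 in CNV d3. All 6 CNV d3 samples lay between the third and the highest control values in a narrow band, whereas control replicate 3 was far above and control replicate 6, the shallowest library, had no read. Mean *Pf4* was 105 ± 117 in control and 88.1 ± 11.1 in CNV d3 (SD, n = 6 each), and without control replicate 3 the control mean was 59.3 ± 36.9. The coefficient of variation was 111% in control and 12.6% in CNV d3. By limma the log2 fold change of *Pf4* was 0.94 (95% interval -1.22 to 3.09, limma adjusted p = 0.585), but -0.24 in edgeR, -0.25 in DESeq2 and -0.17 without control replicate 6, so that its direction depended on the tool and on this library. The platelet and megakaryocyte list, led by *Gp9* in both groups, summed to 387 to 711 in control and 81.4 to 322 in CNV d3. *Gp9* was a decreased DEG (log2 fold change -1.61, limma adjusted p = 0.00781), and the part of platelets in the values of *Pf4* was not tested.

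Control replicate 3 was the highest control for 4 of the 9 genes, *Mrc1*, *Lyve1*, *Pf4* and *Cbr2*. Among the controls it also had the highest sums of photoreceptor genes (6615), monocyte genes (1279) and interferon response genes (31110), but the lowest sums of dendritic cell genes (167) and of 27 further border macrophage genes (86660, with 89340 to 100200 in the other controls). Without this sample the log2 fold changes were -1.11 for *Mrc1*, 1.51 for *Pf4* and 5.14 for *Cbr2*. The part of the other transcripts in this sample's values was not tested.

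**Figure D2:**
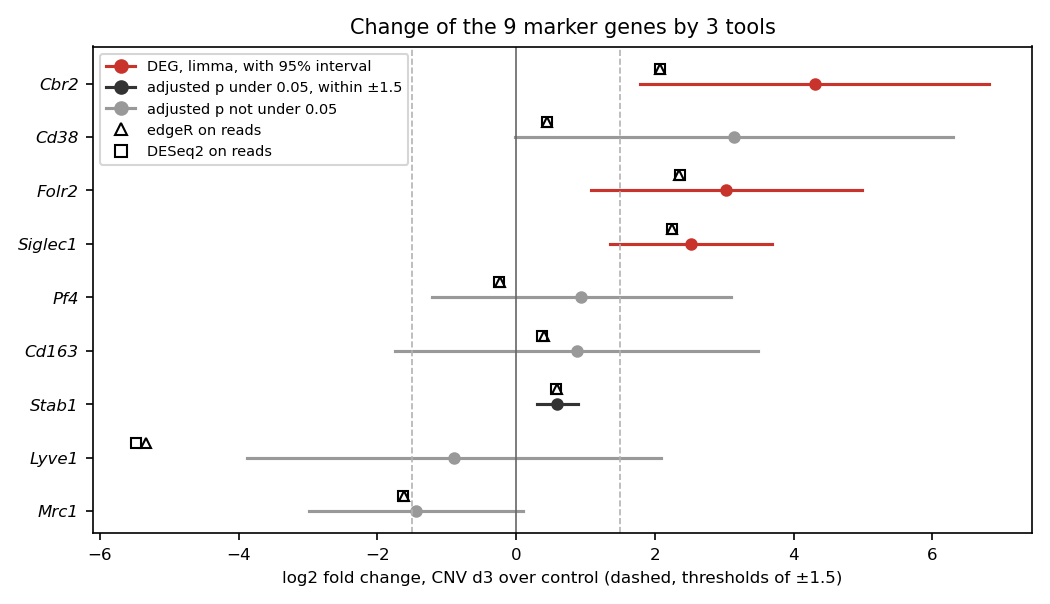
Log2 fold change of CNV d3 over control (horizontal axis) for the 9 marker genes. Circles and lines give limma on log2(normalized counts + 1) with its 95% interval, triangles edgeR and squares DESeq2 on the recovered reads, and dashed lines the thresholds of ±1.5. The 3 tools give close values for Siglec1 and for Stab1, Cbr2 and Cd38 shrink from 4.30 to 2.07 and from 3.14 to 0.45 in edgeR, and Pf4 crosses 0.

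The marker genes did not share 1 change. The difference between the log2 changes of 2 genes was tested for all 36 pairs by a two-sided exact permutation test over the 924 ways to label the samples, whose smallest possible p is 0.00216. After adjustment over the 36 pairs, 3 differences passed, each with the smallest possible p of 0.00216 and an adjusted p of 0.026 (n = 6 per group). The log2 change of *Mrc1* minus that of the other gene was -5.74 for *Cbr2*, -4.47 for *Folr2* and -3.96 for *Siglec1*. Since *Cbr2* and *Folr2* were at 0 in 4 and 3 controls, the size of the first 2 differences depends on the pseudocount. With a pseudocount of 10 they were -3.54 for *Cbr2*, -2.71 for *Folr2* and -3.81 for *Siglec1*, and the difference from *Folr2* no longer passed (exact permutation p = 0.0065, adjusted p = 0.0584). In control, *Mrc1* stood above *Cbr2* by 5.92 and above *Folr2* by 6.18 on the log2 scale, and in CNV d3 by 0.18 and 1.71. *Mrc1* and *Siglec1* were at similar log2 levels in control (a difference of -0.25) and apart in CNV d3 (-4.22). No difference passed when any one of CNV d3 replicates 2 to 6 was left out.

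Per kilobase of exon, the order of the mean levels in control was *Stab1* at 200, *Pf4* at 146, *Mrc1* at 54.9, *Siglec1* at 53.6, *Lyve1* at 32.2, *Cbr2* at 15.0, *Cd38* at 12.9, *Folr2* at 3.47 and *Cd163* at 1.67 normalized counts per kb. In CNV d3 the order was *Stab1* at 297, *Siglec1* at 254, *Pf4* at 122, *Cbr2* at 63.5, *Folr2* at 18.2, *Mrc1* at 17.8, *Cd38* at 17.6, *Cd163* at 2.17 and *Lyve1* at 0.717. The rank of *Lyve1* in control rests on control replicate 3, without which its mean is 0.0. *Siglec1* and *Mrc1* were neighbours in control, and 3 genes stood between them in CNV d3. Each gene was compared with the next in the order by a two-sided exact paired permutation test, whose smallest possible p over 6 samples is 0.0312, in 16 comparisons. In control, no neighbours differed beyond their spread (exact p from 0.125 up). In CNV d3, *Pf4* lay above *Cbr2*, *Cbr2* above *Folr2* and *Cd38* above *Cd163* in 6 of 6 samples (exact p = 0.0312 each, 0.167 after adjustment over the 16 comparisons). The other neighbours in CNV d3 had exact p from 0.0625 up, with 0.438 for *Stab1* and *Siglec1*. No comparison passed after adjustment, and the neighbours were set by the same means that were tested.

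Within a group, the levels of the 9 genes were not shown to move together. Of the 72 correlations between pairs of genes within control or within CNV d3 (n = 6 samples each), 5 had a raw exact permutation p under 0.05, and 0 passed after adjustment, with a smallest adjusted p of 0.64. The lowest raw p was that of *Pf4* and *Stab1* in CNV d3, where Pearson's r was 0.91 (exact permutation p = 0.0097) and Spearman's rho 0.89 (exact permutation p = 0.0333). When the 2 samples with the most distant *Pf4* values were left out, r was 0.91. Among 9712 genes with a mean of at least 100 normalized counts, those whose deviations from the group means were most like those of a marker gene over the 12 samples were *Was* (r = 0.931) and *Tsc1* (r = 0.925) for *Mrc1*, *Igf1* (r = 0.896) and *Tmem41b* (r = 0.891) for *Stab1*, and *Rnf213* (r = 0.923) and *Tmed9* (r = 0.909) for *Siglec1*. The points share libraries and depth, and these values describe the samples only. The other 6 marker genes had means under 100 over all samples.

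The rest of the border macrophage programme was read from a list of 28 further genes, of which 27 had a value. Of these, 7 were increased DEG and 0 were decreased, against the 3.91% and 1.07% of all genes. With the adjusted p alone, 10 were higher and 5 lower, against 8.29% and 4.57%. The groups did not overlap for 9 genes with CNV d3 above and for 4 with CNV d3 below, against 4.64% and 2.83% of all genes. The median log2 fold change of the 27 genes was 1.18, and 20 were above 0.

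Of the 7 increased genes, 4 encode receptors for lipids or glycans. *Cd36*, a receptor for oxidized lipoproteins and long-chain fatty acids, had lowest, median and highest normalized counts of 44.0, 81.8 and 143.0 in control and 1696, 2365 and 3965 in CNV d3, so that the groups lay far apart. Its log2 fold change was 5.03 (SE 0.30, limma adjusted p = 1.042e-06). *Colec12*, a scavenger receptor with a collectin domain, rose by a log2 fold change of 4.62 (limma adjusted p = 0.00683), from a mean of 31.8 to 250 normalized counts. *Dab2*, an adaptor of clathrin-mediated uptake, rose by 4.01 (limma adjusted p = 0.0394) from 335 to 2090 normalized counts, with every CNV d3 sample above every control. In edgeR and DESeq2 the log2 fold change of *Dab2* was 2.64 (adjusted p = 0.00434 and 0.00781). The limma call of *Dab2* was lost without the variance trend (adjusted p = 0.0828), after thinning (adjusted p = 0.094) and when any sample other than control replicate 6 was left out (adjusted p up to 0.129).

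The lectins *Mgl2* and *Clec10a*, which bind galactose and N-acetylgalactosamine, were at 0 in all 6 controls. Mean *Mgl2* was 38.5 normalized counts in CNV d3, at least 6.46-fold higher than 3 reads in the shallowest control, and all 6 samples had reads. Mean *Clec10a* was 48.9, at least 8.21-fold higher, with reads in 5 of 6 CNV d3 samples. Both genes passed the test (limma adjusted p = 0.00532 and 0.0223). Neither gene passed the filter on low values, and the lowest CNV d3 value of *Mgl2* was 1.7 normalized counts. The limma call of *Clec10a* was lost when any sample other than CNV d3 replicate 1 or 4 was left out (adjusted p from 0.0519 to 0.0745). Both lectins are also expressed in dendritic cells and monocytes, whose lists were higher in CNV d3 as well. The dendritic cell list summed to 167 to 579 in control and 520 to 2377 in CNV d3, with 4 of 8 genes increased and its highest means in *Zbtb46* in control and *Ccr7* in CNV d3. The monocyte list, led by *Ms4a4c* in both groups, summed to 373 to 1279 in control and 1203 to 4697 in CNV d3, with 5 of 10 genes increased. The part of these cells in the values of the border macrophage genes was not tested.

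*C4b*, a complement component, rose by a log2 fold change of 3.13 (limma adjusted p = 7.0e-05) and *Wfdc17*, a small secreted protein of activated macrophages, by 2.26 (limma adjusted p = 0.000342). Among the most abundant genes of the list that were not DEG, *Axl* and *Hpgd* differed in direction. *Axl*, a receptor tyrosine kinase for the uptake of dying cells, had a mean of 10401 ± 2927 normalized counts in control and 25974 ± 3755 in CNV d3 (SD, n = 6 each), a log2 fold change of 1.35 (limma adjusted p = 8.2e-05), just under the threshold. *Hpgd*, which degrades prostaglandins, was lower by a log2 fold change of -1.05 (limma adjusted p = 0.000197), with every CNV d3 sample below every control. *Hpgd* is also expressed in microglia, whose homeostatic list held 2 decreased DEG (*P2ry12* and *P2ry13*) of 10 genes and a median log2 fold change of -0.69.

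**Figure D3:**
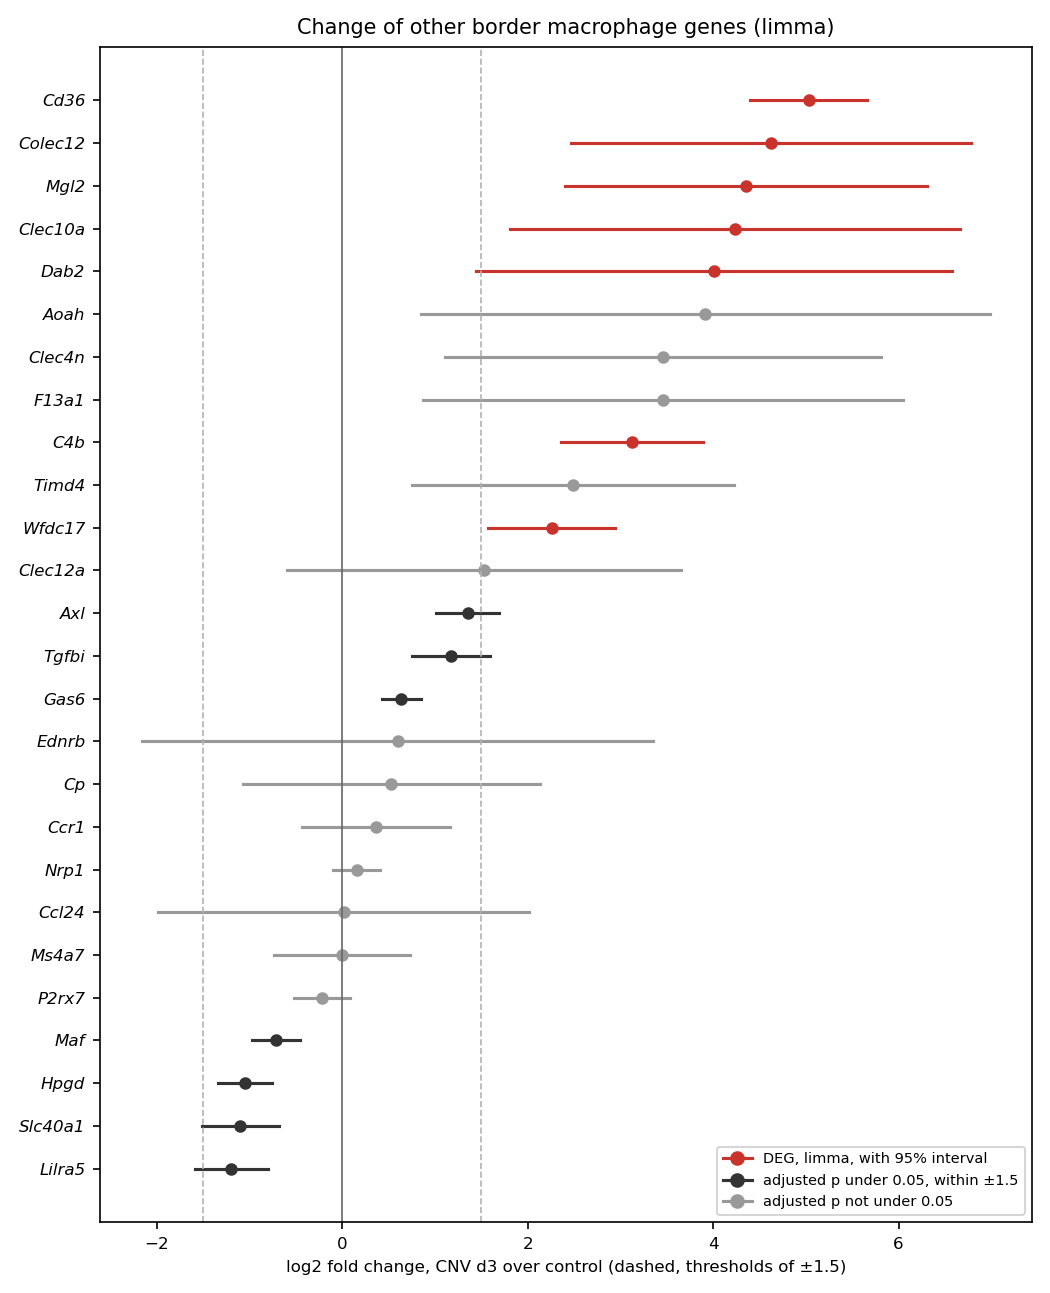
Log2 fold change of CNV d3 over control (horizontal axis) by limma for 26 of the 27 further border macrophage genes, with 95% intervals. Red genes were DEG, dark genes had an adjusted p under 0.05 within ±1.5, and grey genes did not pass. The 7 DEG lie to the right, from Cd36 at 5.03 to Wfdc17 at 2.26, and Hpgd lies left of 0.

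The other lists of marker genes were read beside these results. Endothelial genes summed to 685 to 1609 in control and 732 to 1283 in CNV d3, with 0 of 7 called and the highest means in *Prox1* in control and *Kdr* in CNV d3. Within this list *Pecam1* was lower in CNV d3 (log2 fold change -1.46, limma adjusted p = 0.0236) and *Kdr* higher (0.98, limma adjusted p = 0.0452). Both changes were within the threshold of 1.5, and the other listed genes had adjusted p above 0.05. Neutrophil genes summed to at most 26.4 in control (*S100a8* highest) and 9.84 in CNV d3 (*Cxcr2* highest), and lymphocyte genes to at most 30.5 and 8.05 (*Cd79a* highest in both). Photoreceptor genes summed to 713 to 6615 in control and 564 to 12350 in CNV d3, highest in CNV d3 replicates 4 and 6, with 0 of 8 called. Genes of Mueller glia and astrocytes, led by *Glul*, summed to 6803 to 9780 in control and 5168 to 7554 in CNV d3, with *Dkk3* increased. That sum was mostly *Glul* (mean 5723 in control and 4734 in CNV d3) and *Slc1a3* (2117 and 1358). The low-count genes *Rlbp1*, *Aqp4*, *Gfap* and *Dkk3* had higher means in CNV d3, and the median log2 fold change of the list was 1.64. Mural and fibroblast genes summed to at most 6.07 in control, where *Pdgfra* was highest, and 103 to 357 in CNV d3. There the sum was nearly all *Cspg4*, which was increased, with a mean of 224. The CNV d3 means of *Pdgfrb*, *Rgs5*, *Col1a1*, *Lum* and *Pdgfra* were 2.92, 1.25, 1.54, 0.138 and 0.133. Mast cell genes summed to at most 2.03 in control (*Cpa3*) and 173 in CNV d3 (*Kit*, increased). Only 2 of the 6 listed mast cell genes had a value, and in CNV d3 mean *Kit* was 55.6 and mean *Cpa3* 1.15. Genes of the pigment epithelium and melanocytes, led by *Pmel*, summed to at most 87.4 in control and 67.7 in CNV d3. The part of these cells in the values of the 9 marker genes was not tested.

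**Figure D4:**
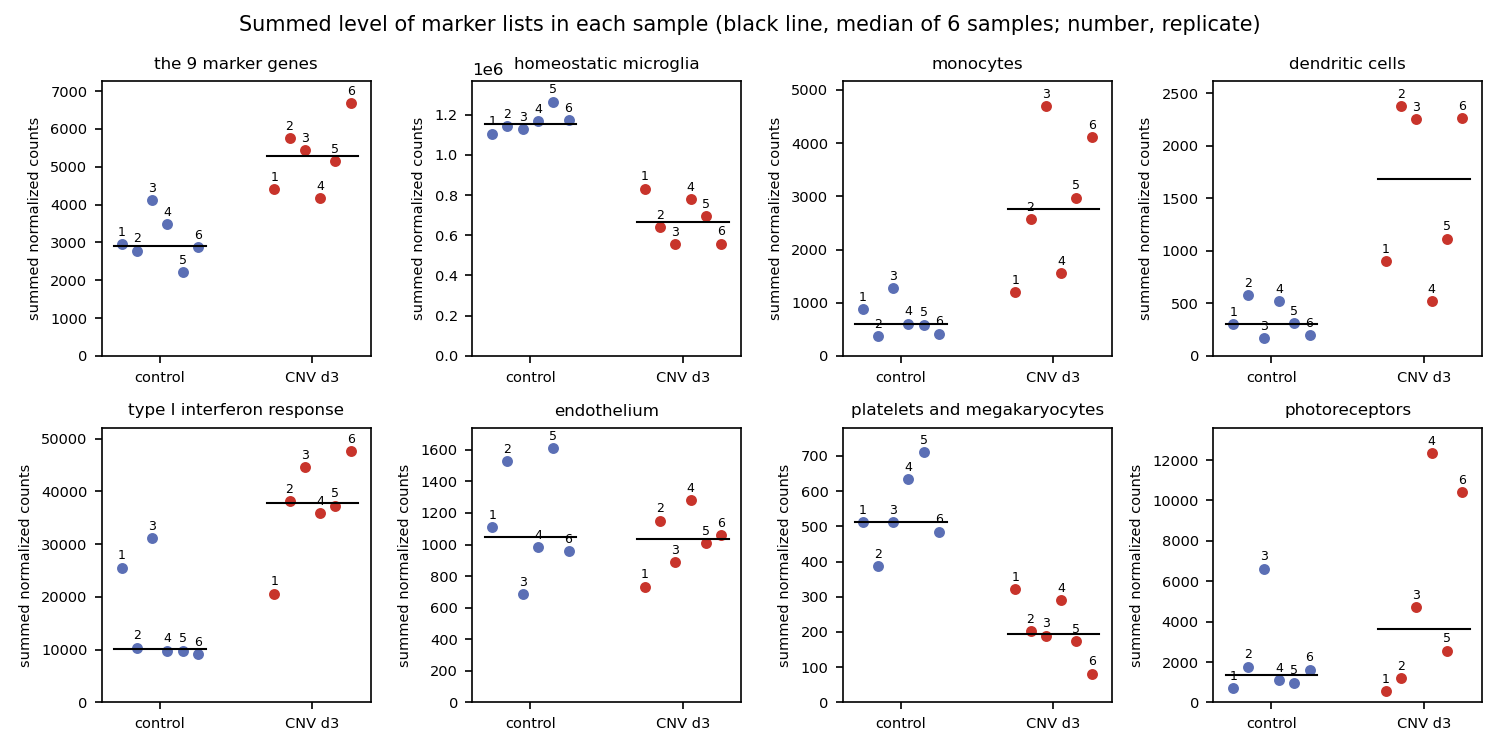
Summed normalized counts (vertical axes, from 0) of the 9 marker genes and of 7 marker lists in each of the 6 control samples (blue) and 6 CNV d3 samples (red), with the median as a line and the replicate number at each point. The 9 marker genes sum to 2221 to 4124 in control and 4173 to 6684 in CNV d3, the homeostatic microglia list is lower in every CNV d3 sample, and control replicates 1 and 3 stand out for the interferon response.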

How the data were processed

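Bulk RNA-seq of sorted retinal microglia was compared between 6 CNV d3 and 6 control samples. The authors mapped single reads with STAR 2.7.2b to the mouse genome (GRCm38.p6, Gencode M25), merged BAM files, counted reads per gene with featureCounts 1.6.4 at default settings, without strand, and normalized with DESeq2 1.22.2. Libraries were made from picograms of RNA by template switching and PCR without molecular identifiers, so floors and intervals of counts cover counting error only. The deposited signal is a normalized count, made by the authors by dividing each gene's reads by the DESeq2 size factor of that sample. The table also holds group means and the authors' fold changes and p-values, which were not used. In every sample 100% of the values were whole multiples (within 0.01 reads) of the value of 1 read, so reads were recovered.

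The test was limma 3.58.1 (R 4.3.3) on log2(normalized counts + 1) over 27299 genes with no filter. Where some samples are at 0, the fold change on this scale depends on the pseudocount and can lie above or below that of the counts. Alternatives were pseudocounts of 0.5 and 10, a filter, TMM factors, total reads, edgeR 4.0.16 and DESeq2 1.42.0 on recovered reads, limma without trend, thinning to the shallowest sample, the adjusted p alone, the replicate number as a block, and leaving out each sample. On simulated data for this comparison (19745 genes, 200 changed by a log2 fold change of 3), limma recovered 141 with 6 false calls, edgeR 143 with 4 and DESeq2 161 with 35. The floor of a sample was taken as 3 reads. Replicate counts differed by more than sampling noise in every pair (chi-square per degree of freedom at least 29.6).

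The 9 genes, the lists and the tests were chosen with earlier results of these data known. The rule for named genes took the 9 genes, every DEG and the 3 most abundant other genes of the further border macrophage list, the highest gene of each marker list per group, and the 2 genes most like a marker gene with a mean of at least 100. Other genes, *Flt4*, *Gm10602* and DEG of marker lists, were named after their values were seen. Some genes that the rule selects are not reported here. Coordinates came from Gencode M21, on the same build, in which 27238 of the 27299 genes were matched.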

Additional observations from a re-analysis of the deposited data

Results flagged for a closer look

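In 4 of the 18 groups of 6 samples, 1 sample stood apart from the others by Dixon's test. That test flags about 1 in 20 groups by chance only for normally distributed values, which counts near 0 are not. Where 5 samples are at 0, any value above 0 in the remaining sample is flagged, as for *Lyve1* in both groups. The number of flags is therefore not to be read against that rate. *Lyve1* was at 564.1 normalized counts in control replicate 3 and at 0.0 in the other 5 controls, and at 12.6 in CNV d3 replicate 1 and 0.0 in the other 5 CNV d3 samples. *Pf4* was at 333.3 in control replicate 3, where the next control had 95.2. *Cd163* was at 52.6 in control replicate 1, where the next control had 2.0.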

How the results depend on the processing

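Of the 9 marker genes, 3 were increased DEG by limma, 1 by edgeR (*Siglec1*), 1 after thinning, 2 by DESeq2 and 1 to 3 when 1 sample was left out. The 1 decreased DEG, *Mrc1*, came from DESeq2 alone. Of the further border macrophage genes 5 were lower with the adjusted p alone, and 5 to 7 were increased DEG when 1 sample was left out. Over all genes, 1068 increased DEG became 600 with a pseudocount of 10 and 2264 with the adjusted p alone, and 293 decreased DEG became 572 in DESeq2 and 1247 with the adjusted p alone. The log2 fold change of *Pf4* was -0.24 in edgeR, -0.25 in DESeq2 and -0.17 to 1.51 when 1 sample was left out, and that of *Lyve1* was -5.33 in edgeR, -5.48 in DESeq2 and -1.52 to 0.63 when 1 sample was left out, turning to 0.63 without control replicate 3. Differences between the changes of 2 marker genes passed in 3 of 36 pairs, and in 0 to 5 when 1 sample was left out, with 0 without CNV d3 replicate 2, 3, 4, 5 or 6 and 5 without control replicate 2 or 4 or CNV d3 replicate 1. Of the values of single genes under the alternatives, 166 kept direction and side of the threshold, 25 kept direction but no longer passed, 1 newly passed and 4 reversed. The causes were not tested.

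With the replicate block, 2 marker genes were increased DEG (*Folr2* was lost, adjusted p = 0.094 by limma) and 921 and 215 of all genes were called. Samples of the same number did not deviate together (correlations from -0.053 to 0.071), and 1 of 6 correlated best with its own number. No pairing by number was seen, which does not exclude one. Depth limits the genes near 0: a sample with no read can hide up to 3 reads, 5.96 normalized counts in the shallowest control.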
